A study of Mus musculus with 16 samples.

Results

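A set of 10 genes of glycolysis and lactate transport was followed through the 2 tables of the series: Slc16a1, Slc16a3, Slc2a1, Hk1, Hk2, Pfkp, Pgk1, Pkm, Ldha and Mpc1. They were selected on their symbols, matched to mouse Ensembl identifiers, and partly on a measured value, the higher level of Slc16a1 in stem cells of the eKO genotype. All 10 were found among 55357 gene rows of the skin table and among 56953 rows of the stem cell table, and all 10 passed the filter on low values in both. Because the choice drew on the stem cell comparison between genotypes, the 10 genes are described there without a test. They were tested in skin.

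The series concerns G-protein-coupled receptor kinase 2 (GRK2) in hair follicle homeostasis and holds bulk RNA sequencing libraries of C57BL/6 mice in 4 groups. Whole back skin of 8-month-old animals gave 5 libraries of genotype Control and 5 of genotype GRK2 eKO, called control and eKO here. Hair follicle stem cells (HFSC), sorted as CD34+ α6-integrin+ bulge cells, gave 3 libraries of each genotype. The HFSC labels give an age of 18 months and the series design text 8 months, so that age is unsettled. The labels do not spell out eKO, do not name the promoter or recombinase behind it, and do not say whether each library came from a separate animal, so the p-values below measure the spread between these samples only, which may be technical.

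Glycolysis splits glucose to pyruvate, which is either reduced to lactate in the cytosol or carried into mitochondria and oxidised. Lactate leaves and enters cells with a proton through monocarboxylate transporters of the SLC16 family. Bulge stem cells rest for most of the hair cycle, and lactate production and the mitochondrial import of pyruvate are known to bear on their activation.

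The libraries held 6.43 M to 9.39 M recovered reads in HFSC and 8.21 M to 16.4 M in skin (M, mega). Grk2, the targeted gene, was at 1298 ± 144 normalised reads in control and 1110.4 ± 93.8 in eKO skin (SD, n = 5 each; limma adjusted p = 0.343), and at 135 ± 12.0 and 114 ± 8.68 in HFSC (SD, n = 3 each; adjusted p = 0.501). The sort markers Cd34 and Itga6 and the bulge keratin Krt15 were present in all 6 HFSC libraries, with Krt15 between 95754 and 119550 normalised reads. Cd34 overlapped between genotypes (1156.8 to 1323.4 in control, 1160.0 to 1222.1 in eKO). Itga6 did not, at 2047.4 to 2310.5 in control and 3140.6 to 3290.4 in eKO HFSC. The eKO HFSC libraries stood apart in other ways. Their endothelial markers summed to 1032 to 1257 normalised reads against 13.7 to 44.0 in controls, where Vwf and Emcn were at 0; of 8 listed markers 7 were tested and all 7 were higher by limma's test, while Egfl7 was at 0 in eKO. In the same test 6 of 8 sebaceous markers were higher (summed 12124 to 12939 against 3360 to 3565), as were 5 of 6 tested differentiated epidermis markers (16108 to 17133 against 2567 to 4448), 4 of 6 tested hair matrix markers (2276 to 2520 against 652 to 790.0) and 2 of 3 tested leukocyte markers (1233 to 2155 against 249 to 307). Of the same leukocyte list, Ptprc overlapped between genotypes (9.998 to 19.9 in control, 3.20 to 28.1 in eKO), and Itgam was at 0 in every HFSC library. Cell cycle markers summed to 883 to 984 normalised reads in control and 1664 to 1774 in eKO HFSC. Melanocyte markers went the other way, from 1888 to 2270 in control to 622 to 950 in eKO. Acta1 and Pvalb of skeletal muscle were at 0 in every HFSC library. Ddx3y, a Y-linked gene, was at 1176 to 1216 normalised reads in control and 359 to 434 in eKO HFSC. The Y-linked genes Uty, Kdm5d and Eif2s3y were also lower in every eKO library than in any control. Sex-linked expression and genotype therefore cannot be told apart in HFSC, and of the members Pgk1 lies on the X chromosome. In skin, control replicate 5 and eKO replicate 3 held next to no Ddx3y reads (at most 0.950).

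The start regions of both lactate carriers, of Ldha and of Mpc1, the member lower in eKO, are shown, because start regions of this pathway carry short motifs known from the regulation of glycolysis. Each run covers 250 bases before and 50 bases after a RefSeq transcription start in GRCm38.p6, on the strand of the gene. Capitals mark the letters ACGTG or GCGTG on either strand, the core bound by hypoxia-inducible factors; the E-box CACGTG, bound by Myc and by the carbohydrate-responsive factor Mlxipl, contains ACGTG on both strands and counts there as a pair. The regions are chr3:104638414-104638713 (plus strand, Slc16a1), chr11:120948817-120949116 (plus strand, Slc16a3), chr7:46845554-46845853 (plus strand, Ldha) and chr17:8283537-8283836 (plus strand, Mpc1).
Slc16a1: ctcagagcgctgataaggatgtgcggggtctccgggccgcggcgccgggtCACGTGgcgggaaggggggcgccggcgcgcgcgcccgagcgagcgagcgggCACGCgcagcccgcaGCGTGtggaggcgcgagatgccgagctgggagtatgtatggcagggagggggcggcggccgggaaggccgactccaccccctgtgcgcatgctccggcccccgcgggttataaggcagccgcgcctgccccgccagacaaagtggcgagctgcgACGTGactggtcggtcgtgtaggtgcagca
Slc16a3: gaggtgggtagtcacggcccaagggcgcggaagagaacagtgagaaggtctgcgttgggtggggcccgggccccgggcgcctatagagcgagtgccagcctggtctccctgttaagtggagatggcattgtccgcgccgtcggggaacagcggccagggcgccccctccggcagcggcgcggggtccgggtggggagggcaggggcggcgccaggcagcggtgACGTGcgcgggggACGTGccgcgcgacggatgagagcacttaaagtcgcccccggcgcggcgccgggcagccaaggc
Ldha: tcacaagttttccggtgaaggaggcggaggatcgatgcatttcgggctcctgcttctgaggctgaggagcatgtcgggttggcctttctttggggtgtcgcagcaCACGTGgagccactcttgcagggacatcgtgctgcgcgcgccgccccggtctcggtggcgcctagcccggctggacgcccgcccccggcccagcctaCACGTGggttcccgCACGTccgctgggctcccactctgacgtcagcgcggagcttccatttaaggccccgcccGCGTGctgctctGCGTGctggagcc
Mpc1: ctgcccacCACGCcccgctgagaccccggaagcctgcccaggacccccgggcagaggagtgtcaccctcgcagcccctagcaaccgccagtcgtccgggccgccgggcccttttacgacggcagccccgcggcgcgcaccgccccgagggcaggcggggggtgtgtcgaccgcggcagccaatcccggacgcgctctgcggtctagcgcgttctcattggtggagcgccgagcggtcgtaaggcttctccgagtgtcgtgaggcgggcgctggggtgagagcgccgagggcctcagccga
The core matched 5 times in the Slc16a1 window, with 1 E-box, and 7 times in this Ldha window, with 2 E-boxes. The Slc16a3 window held 2 matches, and this Mpc1 window held 1. Ldha and Mpc1 each have a further window, not shown, with 2 and 0 matches. The 10 members have 14 such windows in the table; 11 of the 14 held the core and 2 held an E-box, against 43.8% and 7.15% of all 32851 windows of the same length. The 14 windows had a GC content of 51.3% to 73.7%, and both motifs contain CG. The matches describe letters in a reference window and show no binding. The tables were built on GRCm39, so these coordinates belong to the sequences alone.

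In HFSC, both lactate carriers were far higher in eKO than in control libraries, lactate dehydrogenase A and pyruvate kinase were about doubled, and the mitochondrial pyruvate carrier was lower. Of the 10 genes, 7 had every eKO library above every control library, 1 (Mpc1) had every eKO library below, and 2 (Hk1 and Pfkp) overlapped. Over all 13784 genes tested, 18.9% were separated in the higher and 17.4% in the lower direction; since the members were chosen with this comparison known, nothing is read from their count. The median log2 change was 0.80 over the 10 members and −0.03 over all genes tested, and log2 changes here are those of value + 1, where a value is the authors' normalised read count.

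**Figure D1:**
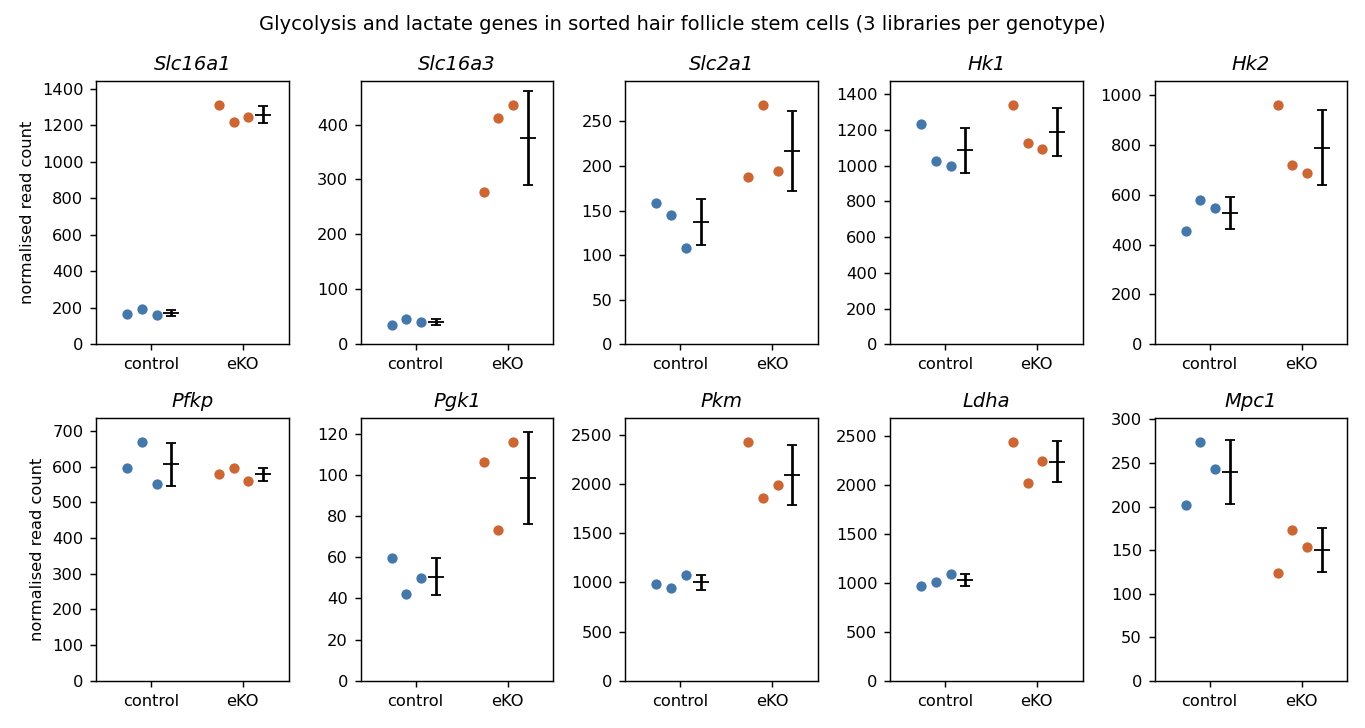
Normalised read count (vertical axis, linear from 0) of each of the 10 genes in the 3 control (blue) and 3 eKO (orange) HFSC libraries; points are libraries and black bars the mean ± SD. Slc16a1 lies at 158 to 192.5 in control and 1220.0 to 1312 in eKO libraries, Mpc1 at 201 to 275 in control and 124 to 173 in eKO libraries, and Hk1 and Pfkp overlap.

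Slc16a1 (ENSMUSG00000032902) encodes MCT1, a carrier that moves lactate and pyruvate in either direction. Control HFSC libraries held 164, 192.5 and 158 normalised reads, and eKO libraries 1312, 1220.0 and 1244. No eKO library came near the highest control, and the eKO mean was 7.35-fold the control mean (log2 2.87, SE 0.14). Slc16a3 (ENSMUSG00000025161), which encodes MCT4, a carrier that works mainly in lactate export, was at 34.9, 46.3 and 41.0 in control and at 277, 412 and 436 in eKO HFSC. Its ratio of means was larger, 9.20 (log2 3.15, SE 0.26), with no overlap of the groups. Because both carriers were higher, the log2 ratio of Slc16a3 to Slc16a1 reads overlapped between genotypes, at −2.23 to −1.95 in control and −2.24 to −1.51 in eKO HFSC.

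The glucose carrier Slc2a1, both hexokinases and the phosphofructokinase Pfkp differed less than the lactate carriers. Slc2a1 (GLUT1, the basal glucose carrier) was at 159, 145 and 108 in control and 188, 269 and 194 in eKO HFSC (log2 0.66, SE 0.23). Hk2, the inducible hexokinase, was at 454, 577 and 547 against 961, 719 and 686 (log2 0.57, SE 0.16), with eKO replicate 1 well above the others. Its constitutive partner Hk1 was at 1232, 1028 and 998 against 1340.4, 1125 and 1095 and overlapped (log2 0.13, SE 0.12). Pfkp, the platelet-type phosphofructokinase, also overlapped, at 596, 670.1 and 552 against 579, 596 and 559 (log2 −0.06, SE 0.13). Of these 4 genes, Slc2a1 and Hk2 had separate groups and Hk1 and Pfkp overlapped.

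The members Pgk1, Pkm and Ldha, which act later in the pathway, were higher in every eKO library. Pgk1, phosphoglycerate kinase, had 59.8, 42.1 and 49.99 normalised reads in control and 106, 73.4 and 116 in eKO HFSC (log2 0.94, SE 0.32). Pkm, the pyruvate kinase of non-hepatic tissues, had 980.3, 939 and 1081 against 2431, 1856 and 1991 (log2 1.06, SE 0.12). Ldha, the lactate dehydrogenase subunit that favours lactate formation, had 973, 1013 and 1093 against 2443, 2021 and 2248 (log2 1.12, SE 0.11). Pkm and Ldha means were 2.09-fold and 2.18-fold those of controls, with no eKO library near a control. Mpc1, one of the paired subunits of the mitochondrial pyruvate carrier, went the other way, from 201, 275 and 243 to 124, 173 and 153 (log2 −0.67, SE 0.21), with a mean 0.626 of the control mean. In all 120 alternative settings tried for the 10 genes in HFSC (12 for each), the log2 change moved by less than the spread between replicates. That outcome was largely fixed in advance, so no stability is read from it. The settings without a filter and with a replicate block returned the same log2 change. Leaving out 1 of 3 libraries moves a group mean by only part of that spread. The sign of the small Pfkp difference changed without control replicate 2, from −0.06 to 0.01. The part of the cell cycle markers and of the other cell types' markers given above in these differences was not tested. In bulk RNA, fewer cells of a type and less RNA per cell cannot be told apart.

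Per kilobase of exon, the order of levels also differed between genotypes. In control HFSC, Ldha led with 310.1 normalised reads per kilobase, followed by Pkm (199.99), Hk1 (127), Mpc1 (115) and Hk2 (88.1), and then Pfkp (45.2), Slc2a1 (39.1), Slc16a1 (38.7), Pgk1 (22.6) and Slc16a3 (7.66). Neighbours overlapped between Hk1 and Mpc1, between Pfkp and Slc2a1, and between Slc2a1 and Slc16a1. In eKO HFSC, Slc16a1 held the third place at 284, below Ldha (676) and Pkm (418) and above Hk1 (139), with no overlap with either neighbour. Hk2 (132), Mpc1 (72.1), Slc16a3 (70.5), Slc2a1 (61.8), Pgk1 (43.9) and Pfkp (43.2) followed, with overlaps between Hk1 and Hk2, from Mpc1 to Slc2a1 and between Pgk1 and Pfkp. In control skin Slc16a1 held the fourth place, at 191, behind Ldha (963), Pkm (586) and Hk2 (422); there Ldha overlapped Pkm, Pkm overlapped Hk2, and Slc16a1 overlapped Slc2a1 (154), the next in order. Exon lengths were those of GENCODE M21, and reads shared with near-identical copies, which Pgk1, Pkm, Ldha and Gapdh have in the genome, may be counted in ways that were not given in the sources used here.

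In whole skin, none of the 10 genes passed limma's test at an adjusted p of 0.05, where 0.374% of 16589 genes did. Of these, 2 (Hk1 and Mpc1) had an unadjusted p below 0.05, as did 14.2% of all genes tested; edgeR called none (0.326% of all genes) and DESeq2 called 1, Mpc1 (3.95% of all genes). The median log2 change of the members was 0.10, against 5.91e-05 for all genes tested. The groups overlapped for 9 of the 10 genes and were separate for 1, Mpc1, where 2.45% of all genes were so separated in the lower and 1.74% in the higher direction.

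**Figure D2:**
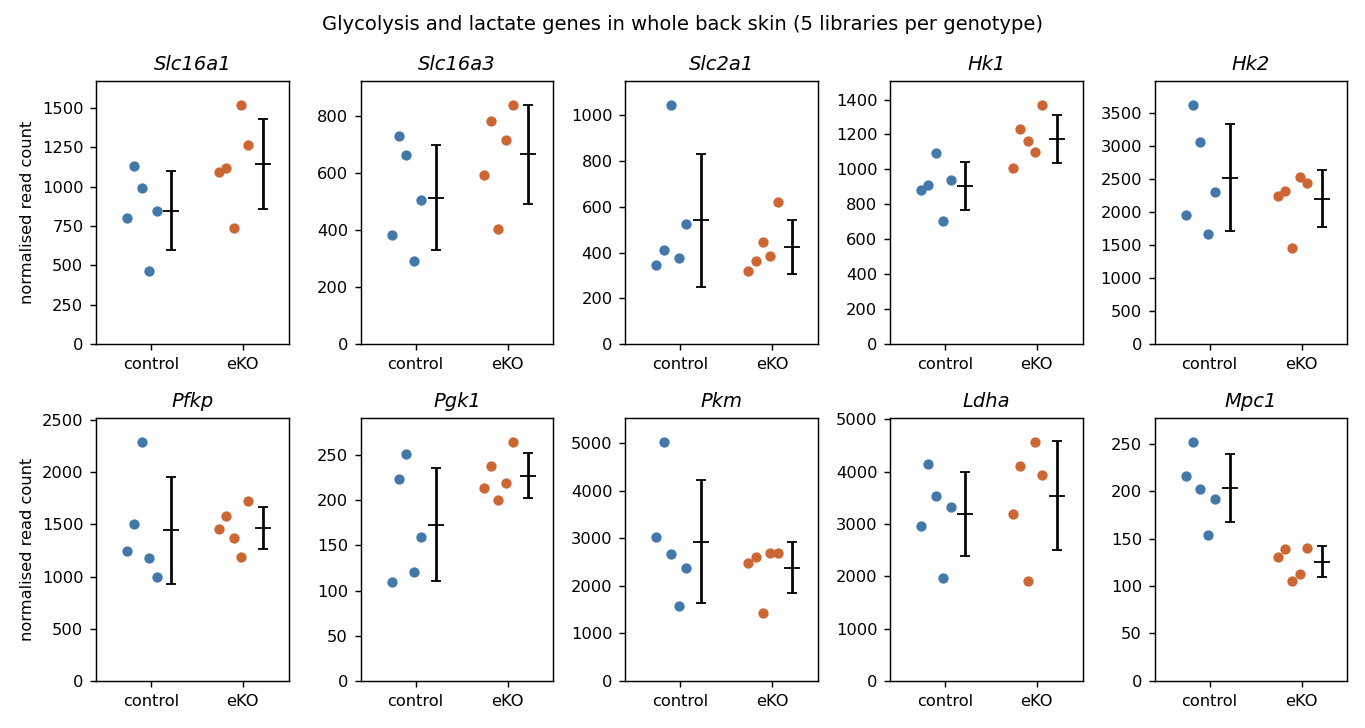
Normalised read count (vertical axis, linear from 0) of the 10 genes in the 5 control (blue) and 5 eKO (orange) skin libraries; points are libraries and black bars the mean ± SD. Only Mpc1 shows separate groups, at 154 to 252 in control and 105 to 140.4 in eKO libraries.

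Mpc1 (ENSMUSG00000023861) was at 216, 252, 203, 154 and 192 normalised reads in control skin and at 131, 139, 105, 112 and 140.4 in eKO skin. All 5 eKO libraries lay below the lowest control, and the eKO mean was 0.618 of the control mean. The log2 change was −0.68 (SE 0.15, 95% interval −1.02 to −0.34; limma adjusted p = 0.0834), beside −0.67 in HFSC. DESeq2 gave an adjusted p of 0.00135 and the fit with hair matrix genes as a covariate 0.0333; over the 18 alternatives the adjusted p ran from 0.00135 to 0.267 and the log2 change from −0.78 to −0.58. The partner subunit Mpc2 was at 540 to 800.3 in control and 538 to 835 in eKO skin (log2 0.13, SE 0.15, adjusted p = 0.742).

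Slc16a1 in skin was at 800.3, 1133, 994, 462 and 846 in control and at 1096, 1119, 735, 1519 and 1264 in eKO libraries. The groups overlapped, and the log2 change of 0.46 (SE 0.25, 95% interval −0.09 to 1.01; limma adjusted p = 0.443) did not pass the test. It was 0.26 without control replicate 4 (adjusted p = 0.574) and 0.72 with the muscle covariate (adjusted p = 0.0909). Slc16a3 was at 290.3 to 728 in control and 402 to 838 in eKO skin (log2 0.41, SE 0.27, 95% interval −0.20 to 1.01, adjusted p = 0.550), and the value was 0.22 without control replicate 4 and 0.68 with the muscle covariate (adjusted p = 0.714 and 0.175). The difference between tissues was not tested for members.

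Among the other members in skin, Hk1 came nearest to the threshold, with a log2 change of 0.38 (SE 0.12, adjusted p = 0.200): control libraries held 705 to 1092 and eKO libraries 1009.9 to 1369 normalised reads. Pgk1 differed by 0.46 (SE 0.23, adjusted p = 0.395), from 110 to 251 in control to 199.7 to 265 in eKO. Signs were mixed for the remainder and unstable under the alternatives. Ldha had a log2 difference of 0.13 (adjusted p = 0.853) that was −0.03 without control replicate 4, and Pfkp one of 0.07 (adjusted p = 0.901) that was −0.05 without control replicate 5 and −0.03 without both libraries low in Y-linked reads. Slc2a1 had −0.25 (adjusted p = 0.744), which was 0.02 without control replicate 3, the library with 1044 normalised reads against 345 to 524 in the other 4 controls. Hk2 had −0.16 (adjusted p = 0.787) and Pkm −0.23 (adjusted p = 0.764), and both were 0.06 with skeletal muscle markers as a covariate.

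**Figure D3:**
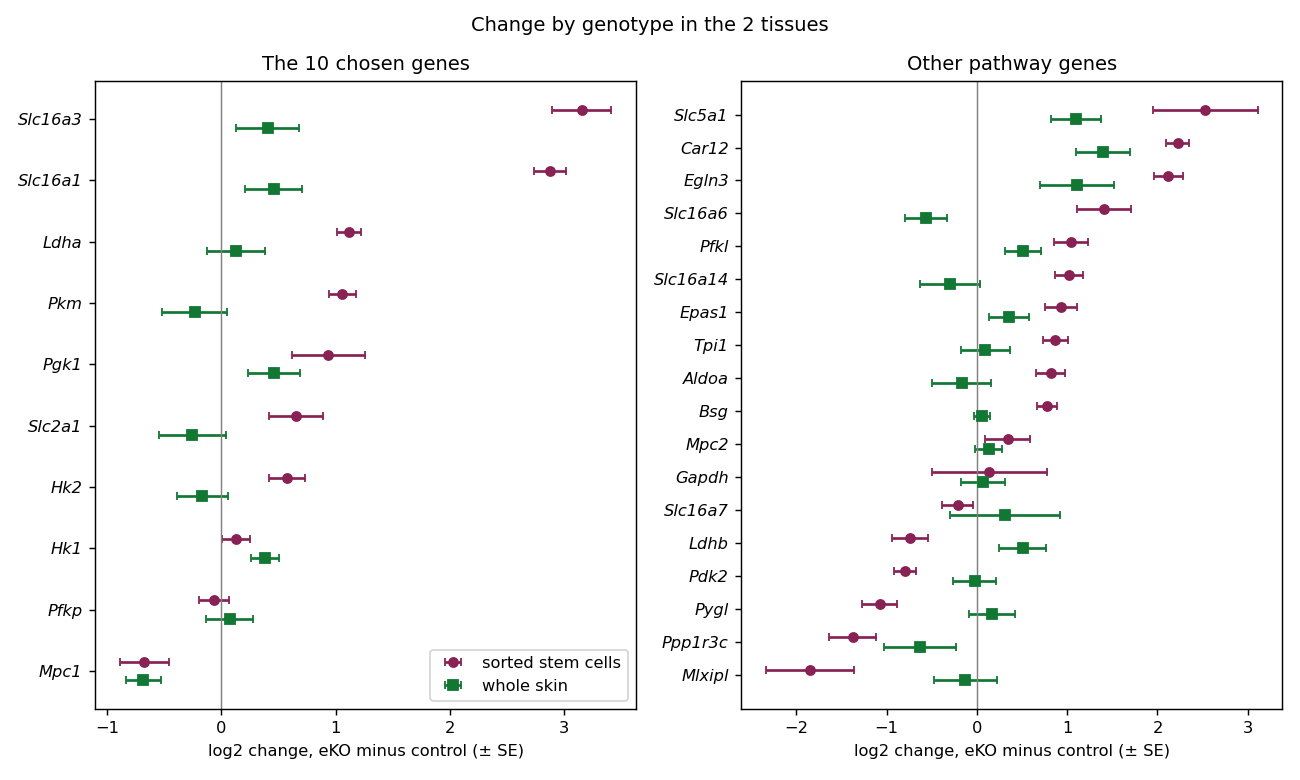
Log2 change, eKO minus control (horizontal axis, ± SE), of the 10 members (left) and of other named pathway genes (right), in sorted HFSC (circles) and whole skin (squares). Slc16a1 and Slc16a3 lie at 2.87 and 3.15 in HFSC and at 0.46 and 0.41 in skin, whereas Mpc1 lies at −0.67 and −0.68.

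Muscle RNA in whole skin moved with several members. The mean log2(value + 1) of 10 skeletal muscle genes ran from 9.13 (eKO replicate 3) to 12.5 (control replicate 2) over the 10 skin libraries. Across these libraries, Pearson's r with this score was 0.85 for Pkm, 0.84 for Hk2 and 0.82 for Ldha (permutation p = 0.00393, 0.00128 and 0.00359; adjusted over 20 relations 0.0262, 0.0256 and 0.0262). Spearman's rho was 0.55, 0.70 and 0.61 (permutation p = 0.105, 0.02997 and 0.0671; each adjusted p = 0.424), so these relations did not pass by rank. Without the 2 libraries farthest from the median score, r was 0.69, 0.66 and 0.72. Within genotypes, as deviations from the genotype means, r was 0.84, 0.84 and 0.95, and it was 0.87 for Slc16a1 and 0.80 for Slc16a3. Over all libraries no other member passed against muscle, where r was 0.52 for Slc16a1 (adjusted p = 0.362) and 0.62 for Mpc1 (adjusted p = 0.171). Against 9 hair matrix and shaft genes no member passed; the strongest r was −0.66 for Pkm (adjusted p = 0.161), while within genotypes r was −0.70 for Pkm and −0.82 for Mpc1.

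**Figure D4:**
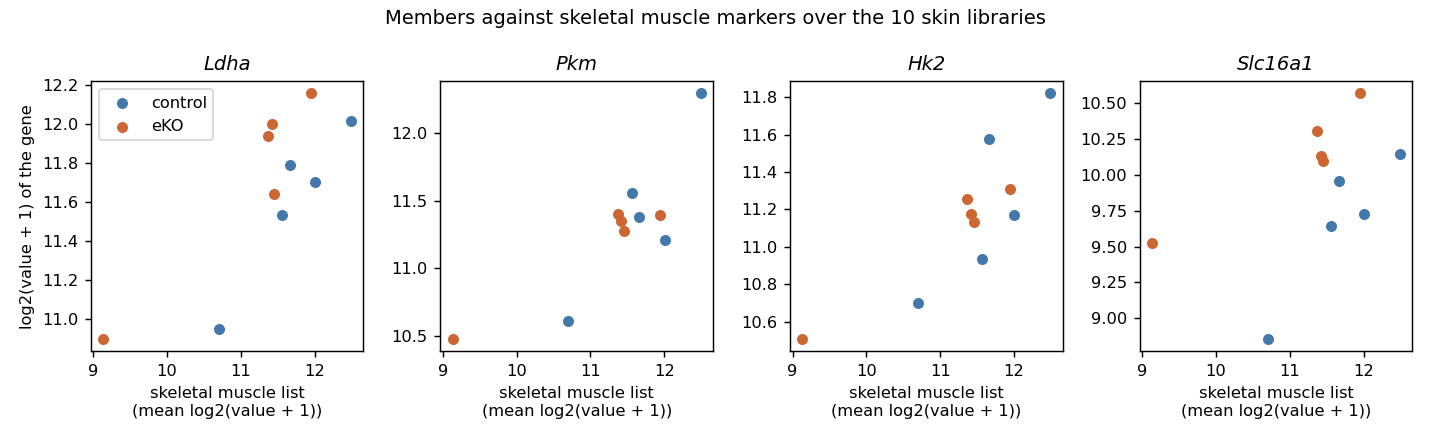
Log2(value + 1) of Ldha, Pkm, Hk2 and Slc16a1 (vertical axes) against the mean log2(value + 1) of 10 skeletal muscle genes (horizontal axes) in the 5 control (blue) and 5 eKO (orange) skin libraries. The eKO library at a score of 9.13 is the lowest for Ldha, Pkm and Hk2.

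Over the 10 skin libraries the genes with patterns most like that of Slc16a1 were Dnajb12, an endoplasmic reticulum co-chaperone (r = 0.935), Sh3kbp1, an endocytic adaptor (r = 0.927), Lce1a2, a late cornified envelope gene (r = 0.927), Fdx1, a mitochondrial ferredoxin (r = 0.924), and Gm49172 (r = 0.923). These are the highest of 16589 genes, given as a description. Slc16a3 ranked 8th (r = 0.919) and Ldha 26th (r = 0.888), whereas Slc2a1 (r = 0.11) and Mpc1 (r = −0.12) did not follow Slc16a1.

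The balance between partner genes within a library does not depend on how a table was scaled and was compared between control HFSC and control skin. The ratios are of reads, not per length, so only their differences between groups are read. The log2 ratio of Hk2 to Hk1 was −1.05 ± 0.34 in control HFSC (SD, n = 3) and 1.43 ± 0.33 in control skin (SD, n = 5), so the balance was shifted towards Hk1 in the stem cells. For Ldha against Ldhb, the subunit that favours lactate use, it was 1.75 ± 0.14 in HFSC and 4.01 ± 0.60 in skin, a shift towards Ldhb in the stem cells. For Pfkp against Pfkl, the liver-type phosphofructokinase, it was 1.54 ± 0.24 and 2.72 ± 0.42. The Mpc1 to Mpc2 ratio, 0.97 ± 0.06 in HFSC and −1.75 ± 0.31 in skin, was the 1 that was higher in HFSC. The differences, HFSC minus skin, were −2.48, −2.26, −1.18 and 2.72, and no library of one tissue fell within the range of the other. Each gave a two-sided exact permutation p = 0.0357, the smallest that 3 against 5 libraries allow, and 0.0357 after adjustment over the 4 ratios. Tissue, RNA extraction, library preparation and labelled age differ together between these groups and cannot be told apart. Muscle content differs with them: the listed skeletal muscle markers summed to 48202 to 148140 normalised reads in control skin and 35.9 to 62.0 in control HFSC. Read counting may differ too, because featureCounts is named for skin only. The treatment of reads shared with near-identical copies, which Ldha has, is not given. The parts of muscle content and of read counting in the ratios were not tested.

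**Figure D5:**
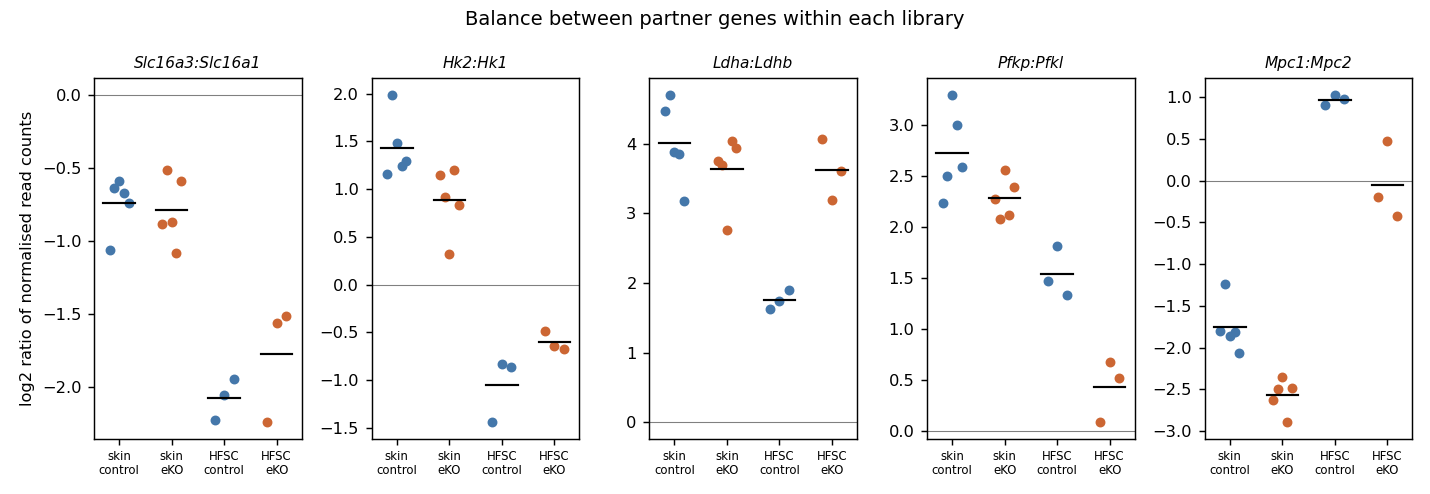
Log2 ratio of normalised read counts of 5 partner pairs (vertical axes) in each library of the 4 groups; points are libraries, horizontal lines group means, blue control and orange eKO. Control HFSC lies apart from control skin in all 5 pairs, and the Ldha:Ldhb ratio of eKO HFSC (3.62) lies near those of skin (4.01 and 3.63).

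In eKO HFSC the same balances were at other levels, given as a description because the genotype comparison chose the members. The Ldha:Ldhb log2 ratio was 3.62 ± 0.44 against 1.75 ± 0.14 in control HFSC, a change of the read ratio from 3.37 to 12.3. Mpc1:Mpc2 was at −0.05 ± 0.46 against 0.97 ± 0.06, and Pfkp:Pfkl was at 0.43 ± 0.31 against 1.54 ± 0.24. Hk2:Hk1 was at −0.60 ± 0.10 against −1.05 ± 0.34. In skin, the Mpc1:Mpc2 log2 ratio was −2.57 ± 0.20 in eKO and −1.75 ± 0.31 in control libraries, and the ranges did not overlap (−2.89 to −2.35 and −2.06 to −1.23).

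Beside the members, 111 other genes of glucose and lactate metabolism were listed, of which 110 were found and 88 were tested in HFSC. By limma's test 19 of the 88 were called, 12 higher and 7 lower in eKO, which is 21.6% against 19.4% of all genes tested (10.7% higher and 8.74% lower), a share near the background. Without control replicate 1 or 2 the lower calls were 3. The median log2 change of the 88 was 0.05. Among 14 tested glycolytic enzymes other than members, 3 rose and none fell: Pfkl, Tpi1 and Aldoa. Of the other lists, 3 of 18 lactate and pyruvate genes were called, 3 of 8 other SLC16 genes, 2 of 8 glucose carriers, 5 of 14 regulators, 2 of 8 hypoxia targets outside glycolysis, 1 of 12 glycogen and gluconeogenesis genes and 0 of 6 pentose phosphate genes. Of these 6, 2 had an unadjusted p below 0.05 (32.8% of all genes tested), edgeR called 0 (18.9%) and DESeq2 called 1, Pgd (21.9%).

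Pfkl rose from 191 to 219 normalised reads in control to 373 to 547 in eKO HFSC (log2 1.04, SE 0.18, limma adjusted p = 0.00170), unlike its partner Pfkp. Tpi1, triose phosphate isomerase, rose by 0.87 (SE 0.14, adjusted p = 0.000830), and Aldoa, aldolase A, by 0.82 (SE 0.16, adjusted p = 0.00314). Gapdh, the step between Tpi1 and Pgk1, was at only 9.86 to 32.9 normalised reads in any HFSC library, with a log2 difference of 0.14 (95% interval −1.24 to 1.51, adjusted p = 0.907). Of the 14 enzymes, 7 were separated in the higher direction, where 18.9% of all genes were, and 0 in the lower; the 4 that did not pass the test were Eno1 (0.46, adjusted p = 0.0825), Pgam1 (0.89, adjusted p = 0.212), Bpgm (0.25, adjusted p = 0.268) and Pgam2 (0.78, adjusted p = 0.294), named after their values were seen.

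Around lactate and pyruvate, Bsg, encoding basigin, the chaperone that brings MCT1 and MCT4 to the cell surface, rose. It was at 1559, 1508 and 1733 in control and 3224, 2614 and 2424 in eKO HFSC (log2 0.78, SE 0.11, limma adjusted p = 0.000471). In skin its log2 difference was 0.06 (SE 0.08, adjusted p = 0.801), and the change in HFSC exceeded that in skin by 0.72 (SE 0.15, adjusted p = 0.00931 in limma's fit of both tissues, where 2 of 88 pathway genes and 5.62% of all 13227 genes passed). Ldhb fell from 294 to 317 in control to 146 to 223 in eKO HFSC (log2 −0.74, SE 0.20, adjusted p = 0.0184), a call lost without control replicate 1, 2 or 3 (adjusted p = 0.0816, 0.0716 and 0.0567). Pdk2, a kinase that shuts off pyruvate dehydrogenase, fell by 0.80 on the log2 scale (SE 0.12, adjusted p = 0.000521). Mpc2 had a difference of 0.34 (SE 0.25, adjusted p = 0.374), and Slc16a7, encoding the high-affinity carrier MCT2, one of −0.21 (SE 0.17, adjusted p = 0.417).

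Of the wider SLC16 family, Slc16a6 rose from 47.9 to 52.6 in control to 100.1 to 175 in eKO HFSC (log2 1.40, SE 0.30, limma adjusted p = 0.00547) but had −0.56 in skin (SE 0.23, adjusted p = 0.298); the difference between the tissues' changes was 1.97 (SE 0.36, adjusted p = 0.00345). Slc16a14 rose by 1.02 (SE 0.15, adjusted p = 0.000550). Slc16a10, an aromatic amino acid carrier, fell by 0.70 (SE 0.22, adjusted p = 0.0426), a call that DESeq2 also made and edgeR did not. Among glucose carriers, Slc5a1, the sodium-coupled carrier SGLT1, rose from 4.00 to 13.7 normalised reads in control to 32.6 to 68.2 in eKO (log2 2.53, SE 0.58, adjusted p = 0.00900), and Slc2a12 fell by 0.59 (SE 0.15, adjusted p = 0.0158).

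Regulators moved in both directions. Egln3, a prolyl hydroxylase that marks hypoxia-inducible factors for decay and is itself their target, rose from 170.0 to 225 in control to 760.4 to 905 in eKO (log2 2.12, SE 0.16, limma adjusted p = 1.97e-06), and Epas1, encoding HIF-2α, rose by 0.93 (SE 0.18, adjusted p = 0.00302). Car12, a carbonic anhydrase at the cell surface, rose from 960.4 to 1315 in control to 4688 to 6124 in eKO (log2 2.22, SE 0.13, adjusted p = 1.51e-07). Smaller rises were those of Ddit4, an inhibitor of mTORC1 (0.64, adjusted p = 0.00661), and Myc (0.34, adjusted p = 0.0221). Mlxipl, the carbohydrate-responsive factor ChREBP, fell from 31.99 to 75.8 in control to 11.4 to 15.98 in eKO (log2 −1.85, SE 0.49, adjusted p = 0.0184), a call lost without control replicate 1 (adjusted p = 0.129) or 2 (0.0920). The glycogen genes Ppp1r3c, which brings a phosphatase to glycogen, and Pygl, glycogen phosphorylase of liver type, fell by 1.37 (SE 0.26, adjusted p = 0.00266) and 1.07 (SE 0.20, adjusted p = 0.00210). The endothelial, sebaceous, epidermal, hair matrix, cell cycle and melanocyte markers and some leukocyte markers also differed between the HFSC genotypes. Their part in the HFSC changes of all pathway genes given above was not tested.

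In skin, 96 pathway genes were tested and limma called none, with 20 at an unadjusted p below 0.05 (14.2% of all genes tested). edgeR also called 0 (0.326% of all genes), and DESeq2 called 5 (3.95% of all genes), all higher: Car12, Eno2, Pdk3, Pgd and Slc5a1. The groups did not overlap for 3 of the 96, all higher in eKO (1.74% of all genes were separated so, and 2.45% in the lower direction), and these are named after their values were seen. Car12 was at 795 to 1076 in control and 1314 to 5020.0 in eKO skin (log2 1.40, SE 0.30, limma adjusted p = 0.0741). Eno2, enolase 2, was at 70.9 to 132 and 169 to 253 (log2 0.86, SE 0.18, adjusted p = 0.0758), and Slc2a6, a member of the glucose carrier family, at 19.6 to 31.2 and 32.4 to 58.5 (log2 0.66, SE 0.23, adjusted p = 0.220).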

How the data were processed

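The deposited values are a normalised signal: per the file values, the authors divided gene read counts by 1 size factor per library, and whole reads were recovered for 100% of values (tolerance 0.01). Per the submitters' processing notes both tissues were processed on GRCm39, and skin also with featureCounts and DESeq2; aligner, annotation, strand and treatment of shared reads are not given in the sources used here. Genes were matched by Ensembl identifier to GENCODE M21 names. limma (version 3.58.1, trended prior, two-sided) was fitted per tissue on log2(value + 1), which understates changes of low genes, for genes reaching a value of 10 in at least 5 skin or 3 HFSC libraries, with Benjamini-Hochberg adjustment over all of them and a threshold of 0.05. edgeR (4.0.16) and DESeq2 (1.42.0) on recovered reads were alternatives, as were a pseudocount of 5, no filter, library-size scaling, each replicate left out, marker covariates, a replicate block and omission of 2 skin libraries. Partner ratios used exact permutation, skin correlations 100000 permutations (scipy 1.17.1). Skin replicates are numbered in accession order. The fits were tested on simulated data.

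The members, pathway lists, marker lists and tests were chosen with earlier results of these data known. Named are all members, called pathway genes (at most 15 per tissue by size), Gapdh, Ldhb, Mpc2, Pfkl, Slc16a7 and Bsg always, and the 5 genes most correlated with Slc16a1 in skin; Slc16a10, Ddit4, Slc2a12 and Myc complete the 19 called genes and were added after their values were seen. Gyg1 and the hair gene Krt85 were not matched. The calls in the other marker lists, in HFSC, were: bulge (1 of 8 tested lower, 0 higher), cell cycle (3 of 8 higher), melanocyte (1 of 4 lower), dermal fibroblast (1 of 3 higher), and skeletal muscle (0 of 1 tested). The sum of the fibroblast list was not higher in eKO, at 134.6 to 155.7 normalised reads in control and 84.4 to 134.2 in eKO. Its genes Col3a1 and Pdgfrb were at 0 in every eKO library but not in every control library, and Lum was at 0 in every HFSC library. No adipocyte or erythroid marker was tested in HFSC. In skin, 3 of 8 sebaceous markers were higher and no other list had a call. Promoter sequences are from RefSeq, GRCm38.p6.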

Additional observations from a re-analysis of the deposited data

Results flagged for a closer look

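In 3 of 20 groups of skin libraries examined over the 10 members, 1 library lay far from the others by Dixon's criterion; chance alone marks about 1 in 20 groups. Slc2a1 was at 1044.3 normalised reads in control replicate 3, with a gap to the next library of 0.745 of the group's range. Hk2 was at 1455.7 and Pkm at 1423.6 in eKO replicate 3, with gaps of 0.731 and 0.8288 of the range, and this library also had the lowest skeletal muscle score of the 10 (9.13). The part of that score in the Hk2 and Pkm values was not tested.

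The change between genotypes differed between tissues for 2 of 88 pathway genes outside the 10, where 5.62% of all 13227 genes tested passed. In limma's fit of both tissues, the HFSC change minus the skin change was 0.717 for Bsg (SE 0.15, adjusted p = 0.00931) and 1.97 for Slc16a6 (SE 0.36, adjusted p = 0.00345), on the log2 scale.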

How the results depend on the processing

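The 62 genes called in skin became 37 without the filter, 32 with library-size scaling, 656 with DESeq2, 153 and 16 with the hair matrix or skeletal muscle list as a covariate, 0 without both libraries low in Y-linked reads (limma; 1790 at an unadjusted p below 0.05), and 10 to 57 with 1 replicate left out. The count of pathway genes called in skin, 0 in the reported fit, became 5 with DESeq2, 2 with the hair matrix covariate and 0 to 1 with 1 replicate left out. In HFSC the count of 2673 genes ran from 1519 to 2620 with 1 replicate left out, lowest without control replicate 1, 2 or 3 (1519, 1541 and 1769), and library-size scaling turned 1468 higher and 1205 lower into 1271 and 1536. With a replicate block, HFSC gave 2696 called genes and 21 called pathway genes. Same-numbered libraries did not deviate together (correlations −0.06, −0.02 and −0.03). These are deviations from means of only 3 libraries, so they cannot decide whether the numbers mark pairs. Library-size scaling called the between-tissue difference for 5 pathway genes instead of 2. With 1 replicate left out, the ratio differences ran from −2.59 to −2.28 for Hk2:Hk1, −2.47 to −2.09 for Ldha:Ldhb, −1.32 to −1.04 for Pfkp:Pfkl and 2.65 to 2.85 for Mpc1:Mpc2, with exact permutation p of 0.0571 or 0.0952, the smallest those sizes allow. Among the members in skin, signs changed for Slc2a1 (−0.40 to 0.017 with 1 replicate left out), Ldha (−0.032 to 0.34), Pfkp (−0.045 to 0.26, and −0.025 without both libraries low in Y-linked reads), Hk2 (0.063) and Pkm (0.061, both with the muscle covariate), and Gapdh in HFSC ran from −0.34 to 0.49. The causes were not tested. Some genes had few reads, among them Gapdh, Slc5a1, Mlxipl, Pgam1 and Pgam2, each under 100 reads in every HFSC library, which limits what can be said of them. The part of depth, and of the treatment of reads shared with near-identical copies, in these low counts was not tested.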
